A study of Mus musculus with 6 samples.

Results

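The replication-dependent histone genes encode the linker histone H1 and the core histones H2A, H2B, H3 and H4. They were taken as every gene symbol in the deposited counts that begins with Hist1h, Hist2h, Hist3h or Hist4h. This gave 68 of the 24411 listed symbols, namely 6 H1, 18 H2A, 19 H2B, 12 H3 and 13 H4 genes. The H2B symbols include Hist3h2bb-ps, annotated as a processed pseudogene and counted here with the genes. RNA was sequenced in bulk from mice at postnatal day 18 (P18), in 3 wild-type (WT) libraries and 3 libraries of animals lacking the Atoh7 large enhancer (enhancer KO). The labels name no strain, sex, zygosity, animal or litter, so p-values measure only the spread between these samples. They also disagree on the tissue, since the protocol and design name cerebellum while the source and tissue fields read retina.

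Replication-dependent histone genes supply the bulk histones that package newly copied DNA, and they are switched on together as cells enter S phase. Their messenger RNAs have no introns and, as a class, no poly(A) tail. They end instead in a short conserved stem-loop that is bound by the stem-loop binding protein SLBP, next to which the U7 small nuclear ribonucleoprotein directs cleavage of the precursor. Some of these genes also make longer polyadenylated transcripts in differentiated cells, so their reads in postmitotic tissue need not come from dividing cells. At P18 the external granule layer of the mouse cerebellum, where granule cell precursors divide, has largely disappeared. The labels give total RNA as the molecule, and no source used here says whether poly(A) selection or ribosomal RNA depletion was applied.

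The 3′ stem-loop defines these messages, and it was read from the annotated transcripts of GENCODE M21 (GRCm38, the assembly also called mm10). The search pattern was a fully paired stem of 6 bases, reading GG, then 2 pyrimidines, then CT, around any loop of 4 bases, 16 bases in all, and 46 of the 68 genes held it. Outside them, 95 of 55273 other annotated genes (0.172%) held it, among them H2afx. The forms found are shown because they divide the histone classes, with the paired stem in capitals and the loop in lower case, written as DNA.
H1, H2A, H2B and H3 form, 26 genes: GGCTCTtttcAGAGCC
H1, H2B and H3 form, 6 genes: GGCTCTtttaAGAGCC
H4 form, 7 genes: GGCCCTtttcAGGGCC
H4 form, Hist2h4 and Hist1h4i: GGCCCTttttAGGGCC
H4 form, Hist1h4b and Hist1h4j: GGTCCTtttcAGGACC
H4 form, Hist1h4a: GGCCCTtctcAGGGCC
H3 form, Hist1h3g: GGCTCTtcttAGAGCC
H2A form, Hist2h2ac: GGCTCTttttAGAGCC
All 12 H4 genes with a stem-loop carried a stem that no gene of the other classes had. No stem-loop was found in 22 genes. In 12 of them the annotated transcript runs from start codon to stop codon alone, so the 3′ end is not covered there. These include the pseudogene Hist3h2bb-ps. In 23 genes the annotated transcript ran on for over 100 bases after the stem-loop, as in Hist2h4 (1257 bases), Hist4h4 (2445 bases) and Hist1h1e (1153 bases).

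Promoters were read from RefSeq (GRCm38.p6), and 62 of the 68 genes had an entry. The motif CCAAT, the TATA motif TATAAA, the octamer ATTTGCAT and the palindrome TGACGTCA were searched on both strands of the 250 bases before the start. CCAAT stood in 82.3% of the histone promoters and in 33.9% of the 32851 promoters of the table. Its share differed by class, from 18 of 18 H2A, 16 of 16 H2B and 6 of 6 H1 promoters to 3 of 12 H4 promoters. TATAAA was in 46.8% of histone promoters and 12.4% of all promoters. The octamer was in 13 histone promoters (21.0%, against 1.60% of all), 7 of H2A and 6 of H2B genes and 0 of the other classes. TGACGTCA was in 4 histone promoters (6.45%, against 1.55% of all) and was added to the search after the Hist1h4h sequence had been seen. Some H2A and H2B genes lie head to head with overlapping upstream stretches, so the counts of every motif include sites counted for both genes. Hist1h2ae and Hist1h2bg share an octamer in this way, and Hist1h2ag and Hist1h2bj share a TGACGTCA. The 100 bases before the RefSeq start are given for an H4, an H2B and an H1 gene whose levels are described further on, with these motifs in capitals.
Hist1h4h, chr13:23530944-23531043, plus strand: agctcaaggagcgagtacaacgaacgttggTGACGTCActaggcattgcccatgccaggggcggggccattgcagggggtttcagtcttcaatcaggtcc
Hist1h2bg, chr13:23571300-23571399, plus strand: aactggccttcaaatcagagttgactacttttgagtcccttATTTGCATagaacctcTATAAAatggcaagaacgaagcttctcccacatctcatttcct
Hist1h1e, chr13:23622559-23622658, minus strand: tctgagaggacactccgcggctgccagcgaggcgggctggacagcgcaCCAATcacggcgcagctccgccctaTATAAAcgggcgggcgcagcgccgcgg
In these 100 bases, Hist1h2bg shows the octamer followed by the TATA motif, Hist1h1e CCAAT followed by the TATA motif, and Hist1h4h TGACGTCA alone. These genes do not stand for their classes. Of the 12 H4 promoters, 2 held TGACGTCA and 6 held TATAAA. Hist1h2bg also holds CCAAT, upstream of the stretch shown. A match describes the letters and is not a measured binding site.

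The genes lie in 4 places in the mm10 genome. The Hist1 group of 54 genes spans chr13:21715763-23934851, and the Hist2 group of 10 spans chr3:96219865-96270132. The 3 Hist3 genes lie within chr11:58948920-58956830, and Hist4h4 stands alone at chr6:136801553-136804415. Many are near-identical copies, which matters because a read is counted only where it aligns to 1 place. Among tested histone genes, the share of 50-base words of a transcript that also occur at another gene ranged from 0% to 93.9%, with a median of 43.8%.

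Reads in genes ranged from 22812075 to 33076111 in WT and from 36849747 to 40858310 in enhancer KO. Reads falling outside annotated exons made up 31.1% to 34.1% of WT and 16.8% to 18.2% of enhancer KO reads. WT replicate 2 stood apart, with 12.9% of its gene reads from the ribosomal RNA gene Rn45s against 1.51% to 3.02% in the other 5 libraries. Atoh7 itself, the check of the labels, was at 63, 42 and 72 reads in WT and 28, 33 and 29 reads in enhancer KO (log2 fold change -1.41 ± 0.205 (SE), edgeR adjusted p = 0.000353). The 8 granule neuron markers summed to 1853 to 2327 CPM (reads scaled to the size of the library) in WT and 1229 to 1499 CPM in enhancer KO, and all 8 were called lower. The 5 Purkinje cell markers summed to 3600 to 4330 CPM in WT and 5019 to 5333 CPM in enhancer KO, with 4 called higher, and 2 of 3 microglia markers were called higher (sums of 114 to 124 and 128 to 152 CPM). Called lower were 2 of 3 endothelium and 1 of 3 midbrain markers, and called higher was 1 of 4 oligodendrocyte markers. No astroglia or choroid plexus marker was called. The choroid plexus sum was 1128 to 1782 CPM in WT and 763 to 1938 CPM in enhancer KO. Over all genes tested, 13.4% were called higher and 17.9% lower. The 7 photoreceptor markers summed to 1.37 to 2.04 and 1.01 to 1.29 CPM. Markers of cerebellum were thus far above those of retina. In bulk RNA, fewer cells of a type and less RNA per cell cannot be told apart.

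Histone transcripts were a small part of every library, and more of the reads in enhancer KO. The 68 genes together held 12497 to 21115 reads in WT and 25277 to 29638 reads in enhancer KO. Scaled to library size with the TMM method of edgeR, their summed level was 523, 610 and 625 CPM in the 3 WT libraries and 678, 657 and 711 CPM in the 3 enhancer KO libraries. All 3 enhancer KO libraries lay above all 3 WT libraries, and WT replicate 1 was the lowest. The means were 586 ± 55.4 and 682 ± 26.9 CPM (SD, n = 3 each), a ratio of 1.16 ± 0.119 (SD). No p is given for the sum, since the genes were chosen with results of these data known. Without WT replicate 1 the ratio was 1.10. Reads aligned to several places, which are not counted in genes, made up 7.10% to 8.21% of WT and 10.2% to 11.3% of enhancer KO reads. The part of this share, of the reads outside exons and of the cell type markers given above in the histone levels was not tested.

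The reads were unevenly spread over the genes. Of the 68 genes, 11 had 0 reads in all 6 libraries, and 2 more, Hist1h2ah and Hist1h1t, had reads but too few to test. The testis linker histone Hist1h1t had 2, 0 and 1 reads in WT and 2, 4 and 0 in enhancer KO, and its testis partners Hist1h2aa and Hist1h2ba were among those at 0. For the other 9 genes at 0, the share of 50-base words found at another gene was 34.7% to 100%, with a median of 93.1%. The remaining 55 genes passed the low-count filter, 53 of them at the filter level in all 3 libraries of both groups. The H2A gene Hist1h2an (log2 fold change 0.40) reached it in all 3 libraries of enhancer KO alone and the H2A gene Hist1h2ag (0.08) in all 3 of WT alone, and neither was called. Their totals over 6 libraries ran from 71 to 12769 reads.

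Levels per length depended on the transcript taken, since the counting annotation is unknown. With RefSeq lengths, Hist1h4d stood at 141 CPM per kb in WT and 163 in enhancer KO, Hist1h4h at 124 and 158, Hist2h4 at 105 and 153, and Hist1h4c at 93.9 and 118. The linker histone gene Hist1h1e stood at 76.8 CPM per kb in WT and 65.1 in enhancer KO. GENCODE M21 has longer transcripts for most of these genes, and with its lengths Hist1h4h stood at 115 and 146 CPM per kb, Hist1h4d at 49.9 and 57.7, Hist1h4c at 42.9 and 54.2, Hist1h1e at 31.1 and 26.4, and Hist2h4 at 24.8 and 36.1. Hist1h4h was thus above the other 4 with GENCODE lengths, and Hist1h4d with RefSeq lengths.

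**Figure D1:**
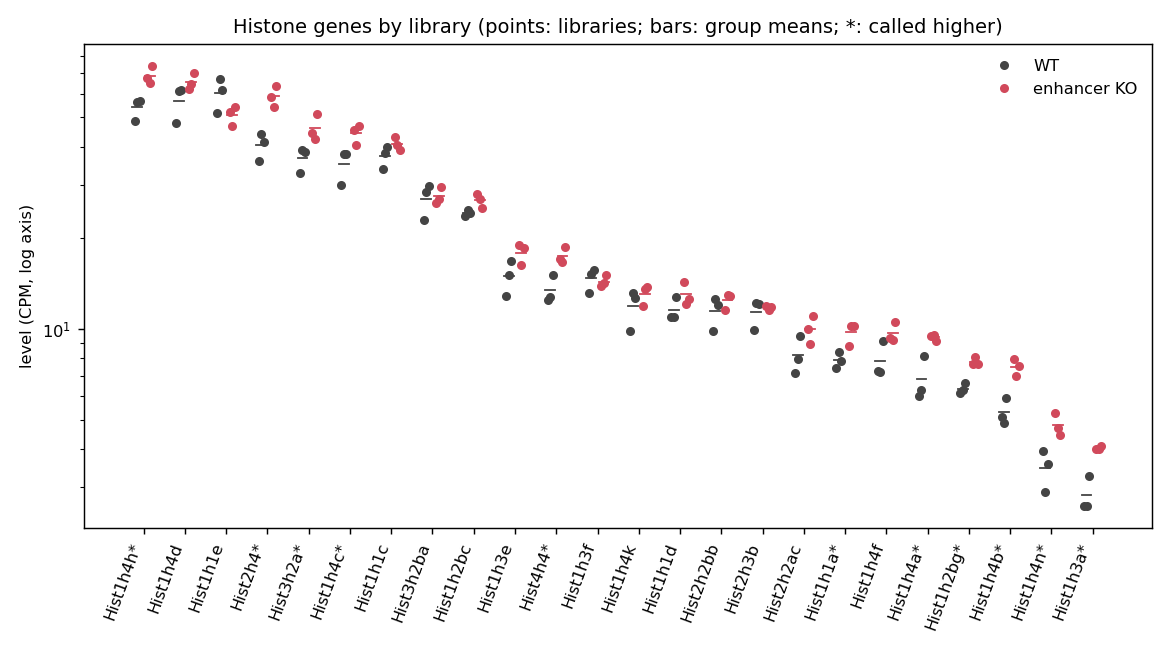
Level (CPM, log axis, not divided by length) of the histone genes called in the main comparison and of the 20 with the highest mean level. Points are the 3 WT and 3 enhancer KO libraries, bars are group means, and an asterisk marks the genes called higher in enhancer KO. Hist1h4h, at 48.7 to 56.9 CPM in WT, lies at 64.9 to 74.0 CPM in enhancer KO, while Hist1h1e has a WT mean of 60.1 CPM and an enhancer KO mean of 50.9 CPM.

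The test across all genes called 11 of the 55 tested histone genes higher in enhancer KO and 0 lower (edgeR quasi-likelihood test, Benjamini-Hochberg adjusted p under 0.05). The background is 13.4% of the 15846 tested genes called higher and 17.9% called lower, so 20% of the tested histone genes were called higher and 0% lower. At an unadjusted p under 0.05, 24 were higher and 1 lower. DESeq2 called 9 higher and 1 lower, limma-voom 11 and 0, and edgeR without WT replicate 2, the library with the high ribosomal share, 8 and 0. Over the 55 genes, called or not, 50 fold changes were above 0 (48 of the 53 at the filter level in every library) and the median log2 fold change was 0.31 (interquartile range 0.16 to 0.43), against 0.00 (-0.18 to 0.14) over all genes tested. In 29 of the 55, every enhancer KO library was above every WT library, where 20.5% of all genes tested show this, and in 0 was every enhancer KO library below, where 24.3% do. Scaling by library size alone moved the share of calls that were lower from 57.3% to 43.8% over all genes, and gave 15 histone genes higher and 0 lower.

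The same counts were made over other genes of like build or level. Among 294 other tested protein-coding genes with a single exon, 44 were called higher and 23 lower, with a median log2 fold change of 0.08. Among 13407 other tested genes below a mean of 100 CPM, 9.91% were called higher and 18.1% lower, with a median of -0.01. The 26 histone genes with at least 100 reads in every library, where counting error is least, had 9 called higher, 22 above 0 and a median of 0.19.

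Histone H4, which pairs with H3 in the core of the nucleosome, had the most calls. Of 13 genes 12 were tested, and 7 were called higher (58.3%, against 13.4% of all genes tested). Fold changes were above 0 in 12 of 12, and the median log2 fold change was 0.36. Hist2h4, the H4 gene of the chromosome 3 group, was at 35.8, 44.0 and 41.6 CPM in WT and 58.6, 54.2 and 63.7 CPM in enhancer KO. The groups did not overlap, and the change was a log2 fold change of 0.54 ± 0.0815 (SE), with an edgeR adjusted p of 0.000864. Hist1h4h was at 48.7, 56.4 and 56.9 CPM in WT and 67.4, 64.9 and 74.0 CPM in enhancer KO (log2 fold change 0.35 ± 0.0686 (SE), edgeR adjusted p = 0.00290). Here too the lowest enhancer KO library was above the highest WT library. Hist4h4, the solitary gene on chromosome 6, was at 12.5, 12.7 and 15.03 CPM and 17.0, 16.7 and 18.6 CPM, a log2 fold change of 0.37.

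Hist1h4a was at 6.01, 6.25 and 8.14 CPM in WT and 9.49, 9.54 and 9.09 CPM in enhancer KO, a log2 fold change of 0.45. Hist1h4b, at 5.12, 4.88 and 5.89 CPM in WT, was at 7.95, 6.97 and 7.53 CPM in enhancer KO, a log2 fold change of 0.49. These genes lie within the same stretch of chromosome 13 and their groups did not overlap. Hist1h4c was at 30.0, 37.9 and 37.7 CPM in WT and 45.5, 40.7 and 47.0 CPM in enhancer KO, a log2 fold change of 0.34. Hist1h4n was at 3.95, 2.88 and 3.58 CPM and 5.26, 4.68 and 4.44 CPM, a log2 fold change of 0.45, and 85.6% of its 50-base words occur at another gene, most at the untested Hist1h4m. The edgeR adjusted p-values were 0.0129 for Hist1h4a, 0.00682 for Hist1h4b, 0.00686 for Hist4h4, 0.0225 for Hist1h4c and 0.0358 for Hist1h4n. Hist1h4c lost its call without enhancer KO replicate 1 (0.0701) or 3 (0.0600), and Hist1h4n in 4 of the 6 fits that leave out 1 library, those lacking WT replicates 2 and 3 and enhancer KO replicates 1 and 2 (0.0753 to 0.114).

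Of the other H4 genes, Hist1h4d was the most abundant and did not pass. It was at 47.9, 61.0 and 61.7 CPM in WT and 62.3, 64.3 and 70.4 CPM in enhancer KO, without overlap (log2 fold change 0.21 ± 0.0989 (SE), edgeR adjusted p = 0.150). WT replicate 1 was well below the other 2 WT libraries. Hist1h4d was called higher with library size alone as the scaling (edgeR adjusted p = 0.0171) and with DESeq2 (adjusted p = 0.0458). A replicate block gave the same call. Hist1h4f and Hist1h4k, not called, had log2 fold changes of 0.30 and 0.14. Without WT replicate 3, Hist1h4f was called higher (0.42, edgeR adjusted p = 0.0230). The same call came with library size alone, the unstranded column or a replicate block.

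**Figure D2:**
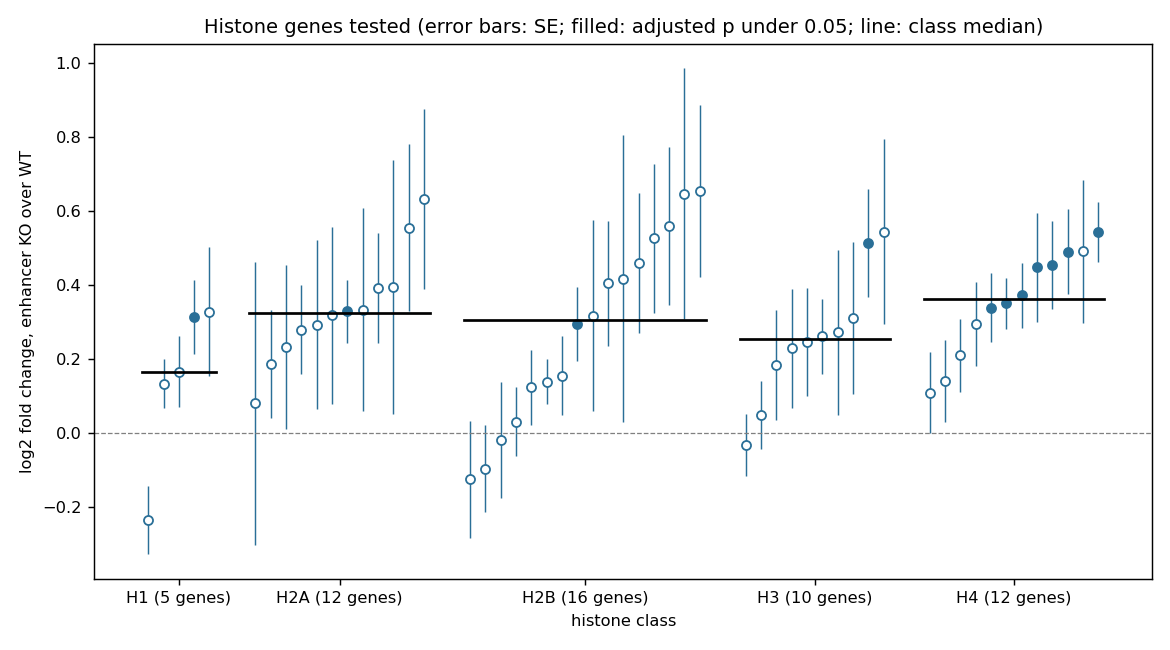
Log2 fold change of enhancer KO over WT for the 55 tested histone genes, by class and in rising order, with standard errors, class medians as lines and filled points at adjusted p under 0.05. All 12 H4 and all 12 H2A genes are above 0, and 7 of the 11 filled points are H4 genes.

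The linker histones, which bind the DNA between nucleosomes, had 1 call, and only Hist1h1e, not called, had a fold change below 0. Of 5 tested, 1 was called higher (20%, against 13.4% of all genes tested). Fold changes were above 0 in 4, and the median log2 fold change was 0.17. Hist1h1a rose, from 7.40, 8.35 and 7.81 CPM in WT to 8.77, 10.2 and 10.2 CPM in enhancer KO (log2 fold change 0.31, edgeR adjusted p = 0.0316). The call ended in the fits lacking WT replicate 1, WT replicate 3, enhancer KO replicate 2 or enhancer KO replicate 3 (0.0776 to 0.112). Hist1h1e, the H1 gene with the most reads, was at 51.9, 66.8 and 61.6 CPM in WT and 52.0, 46.8 and 54.0 CPM in enhancer KO, with the lowest WT library inside the enhancer KO range. Its log2 fold change was -0.23 ± 0.0925 (SE), with an edgeR adjusted p of 0.0909. Without WT replicate 1 it was called lower (-0.33, edgeR adjusted p = 0.00202). Hist1h1e overlaps Hist1h2be on the same strand over 496 bases in GENCODE M21, and reads of such a stretch are not assigned to either gene where the counting annotation has the overlap. Hist1h1d was at 0.17, not called.

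Genes of H2A and H2B, which form the outer dimers of the nucleosome, had 1 call each. Of 12 tested H2A genes 1 was called higher (8.33%, below the 13.4% of all genes tested). Fold changes were above 0 in 12, and the median log2 fold change was 0.32. Of the 10 that reached the filter level in every library, 10 were above 0. The called gene, Hist3h2a on chromosome 11, was at 32.8, 39.0 and 38.4 CPM in WT and 44.3, 42.6 and 51.4 CPM in enhancer KO (log2 fold change 0.33 ± 0.0857 (SE), edgeR adjusted p = 0.0156). The groups were separate. Its neighbour Hist3h2ba, an H2B gene, was at 22.8 to 29.6 CPM in WT and 26.0 to 29.5 CPM in enhancer KO, fully within the WT range (log2 fold change 0.03). Without WT replicate 1 that value was -0.08. Hist2h2ac, an H2A gene, was at 0.28 and not called, and passed without WT replicate 3 (0.41, edgeR adjusted p = 0.0389).

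Of 16 tested H2B genes 1 was called higher (6.25%, below the 13.4% of all genes tested). Fold changes were above 0 in 13, and the median log2 fold change was 0.31. The 16 include the pseudogene Hist3h2bb-ps (-0.12, not called). Hist1h2bg was at 6.14, 6.25 and 6.63 CPM in WT and 7.66, 8.09 and 7.62 CPM in enhancer KO (log2 fold change 0.30, edgeR adjusted p = 0.0391). The libraries of each group lay close together and apart from the other group, yet leaving out any 1 of the 6 libraries ended the call (0.0518 to 0.127). Hist2h2bb, not called, was at 0.12. Several H2B genes with few reads had larger values without passing, such as Hist1h2bk at 0.956, 1.17 and 1.21 CPM in WT and 2.13, 1.79 and 1.34 CPM in enhancer KO (log2 fold change 0.65 ± 0.233 (SE), edgeR adjusted p = 0.0506), a gene named after its values were seen.

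Of 10 tested H3 genes 1 was called higher (10%, below the 13.4% of all genes tested). Fold changes were above 0 in 9, and the median log2 fold change was 0.25. Hist1h3a was at 2.59, 2.59 and 3.26 CPM in WT and 4.01, 4.005 and 4.10 CPM in enhancer KO (log2 fold change 0.51 ± 0.146 (SE), edgeR adjusted p = 0.0186). The call was lost without WT replicate 1 (0.0607) or 2 (0.0537). The more abundant H3 genes differed less: Hist1h3e at 12.8 to 16.8 CPM in WT and 16.2 to 19.0 CPM in enhancer KO (0.26), Hist1h3f at 13.1 to 15.7 and 13.8 to 15.03 CPM (-0.03), and Hist2h3b at 9.90 to 12.2 and 11.6 to 11.9 CPM (0.05), none called. All 3 overlapped between the groups. Hist1h3e was called higher without WT replicate 3 (edgeR adjusted p = 0.0282) or enhancer KO replicate 2 (0.0496). It was also called with library size alone, no filter or the unstranded column.

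**Figure D3:**
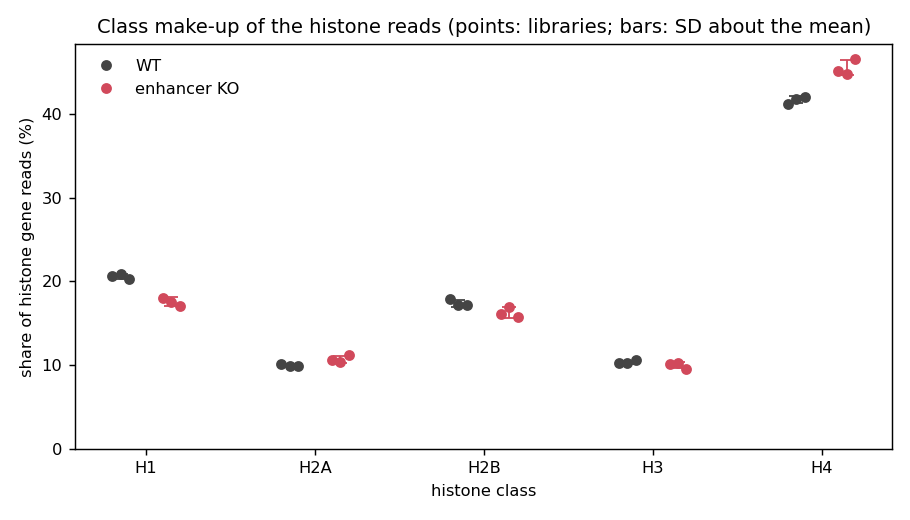
Share of all histone gene reads (%) taken by each class in the 3 WT and 3 enhancer KO libraries, with bars at the SD about each mean. H4 takes 41.2% to 42.1% in WT and 44.8% to 46.5% in enhancer KO, and H1 takes 20.3% to 20.9% and 17.0% to 18.1%.

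The make-up of the histone reads, which does not depend on how libraries are scaled, differed between the groups. H4 genes took 41.2%, 41.8% and 42.1% of histone reads in WT and 45.1%, 44.8% and 46.5% in enhancer KO. H1 genes took 20.6%, 20.9% and 20.3% in WT and 18.1%, 17.6% and 17.0% in enhancer KO. Neither class overlapped between the groups. In levels, the H4 sum was 215 to 263 CPM in WT and 295 to 330 CPM in enhancer KO, while the H1 sum was 108 to 128 and 116 to 122 CPM. Hist1h1e alone had means of 60.1 and 50.9 CPM, within H1 sum means of 121 and 120 CPM. The other 4 tested H1 genes had fold changes above 0. H2A took 9.91% to 10.1% and 10.3% to 11.2% of histone reads, H2B 17.1% to 17.9% and 15.8% to 17.0%, and H3, which overlapped, 10.2% to 10.6% and 9.54% to 10.3%.

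By 3′ end, the counts were as follows, and the differences between them were not tested. Of all genes tested, 13.4% were called higher. Of the 20 tested genes with over 100 bases after the stem-loop, 6 were called higher (30%, median log2 fold change 0.28). Of the 18 tested genes with up to 100 bases, 4 were (22.2%, median 0.43). Of the 17 tested with no stem-loop found, 1 was (5.88%, median 0.23). That last group depends on the annotation, since 12 of its 22 genes have a transcript of coding sequence alone. The 3 genes best known for polyadenylated messages in differentiated cells were not called in either direction. Hist1h1c was at 33.9, 38.1 and 39.8 CPM in WT and 43.1, 40.5 and 39.2 CPM in enhancer KO (log2 fold change 0.13, edgeR adjusted p = 0.147), with overlapping groups. Hist1h2bc was at 23.6, 24.7 and 24.2 CPM in WT and 27.9, 26.8 and 25.1 CPM in enhancer KO (0.14, edgeR adjusted p = 0.108), without overlap. Hist2h2be was at 7.03, 5.71 and 6.60 CPM in WT and 6.57, 6.03 and 5.63 CPM in enhancer KO (-0.09).

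By position, 8 of 45 tested Hist1 genes (17.8%) and 1 of 6 Hist2 genes (16.7%) were called higher, near the 13.4% of all genes tested. So were 1 of 3 Hist3 genes and the single Hist4 gene, too few for a share to be read. The reads on the opposite strand of the histone genes were 0.754% to 1.09% of both strands in WT and 0.674% to 0.828% in enhancer KO.

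The replacement histones come from genes outside these groups and are for the most part made throughout the cell cycle from polyadenylated messages. Of the 20 listed, H2afx and H2bfm hold the stem-loop pattern in an annotated transcript. Of the 20, 11 were tested, 3 were called higher and 0 lower by edgeR, against 13.4% and 17.9% of all genes tested, with a median log2 fold change of 0.01. At an unadjusted p under 0.05, 4 were higher and 1 lower, and 0 were lower with DESeq2 or limma-voom. H2afv, an H2A.Z form, was at 24.2, 26.3 and 29.1 CPM in WT and 31.2, 31.0 and 29.9 CPM in enhancer KO (0.21, edgeR adjusted p = 0.0379). H2afj, an H2A variant, was at 22.5, 22.8 and 22.8 CPM in WT and 25.4, 26.1 and 25.6 CPM in enhancer KO (0.18, edgeR adjusted p = 0.0296). H1fx, a linker variant, was at 21.0, 19.8 and 22.05 CPM in WT and 23.8, 24.6 and 24.7 CPM in enhancer KO (0.22, edgeR adjusted p = 0.0220). All 3 were separate between the groups and were small changes. None of these calls held in every leave-one-out fit. H2afj lost its call without any 1 of the 6 libraries (0.0530 to 0.100). H2afv missed the threshold in 4 fits, each lacking replicate 1 or 2 of either group (0.0714 to 0.124), and H1fx in the fits lacking replicate 2 of either group (0.0677 and 0.0718). The main H3.3 genes did not pass, with H3f3a at 159 to 185 and 174 to 181 CPM and H3f3b at 227 to 272 and 226 to 237 CPM (named after their values were seen).

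Genes that make and process histone messages were called in both directions. Of 26 tested, 1 was called higher and 6 lower, against 13.4% and 17.9% of all genes tested, with a median log2 fold change of -0.05. Npat, the coactivator that switches on histone genes at the start of S phase, was at 56.4, 60.8 and 57.4 CPM in WT and 50.3, 51.3 and 50.8 CPM in enhancer KO (-0.20, edgeR adjusted p = 0.00740). Hinfp, which binds H4 promoters, was at 11.9, 11.4 and 11.6 CPM in WT and 8.72, 9.44 and 9.52 CPM in enhancer KO (-0.34, edgeR adjusted p = 0.00927). Both were below WT in 3 of 3 enhancer KO libraries. With library size alone as the scaling, Npat (edgeR adjusted p = 0.225) and Upf1 (0.153) were not called. Cstf2 (-0.37) of the cleavage machinery, Srrt (-0.32) and Ncbp1 (-0.16) of the cap-binding pathway, and Upf1 (-0.21), a helicase of histone message decay, were also called lower. Ncbp2, the other cap-binding subunit, was called higher (0.24). Slbp was at 19.6, 19.7 and 18.4 CPM in WT and 20.9, 20.7 and 21.8 CPM in enhancer KO (0.14, edgeR adjusted p = 0.127), above WT in each library but not past the threshold. Hinfp, Ncbp1, Ncbp2 and Slbp were named after their values were seen.

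**Figure D4:**
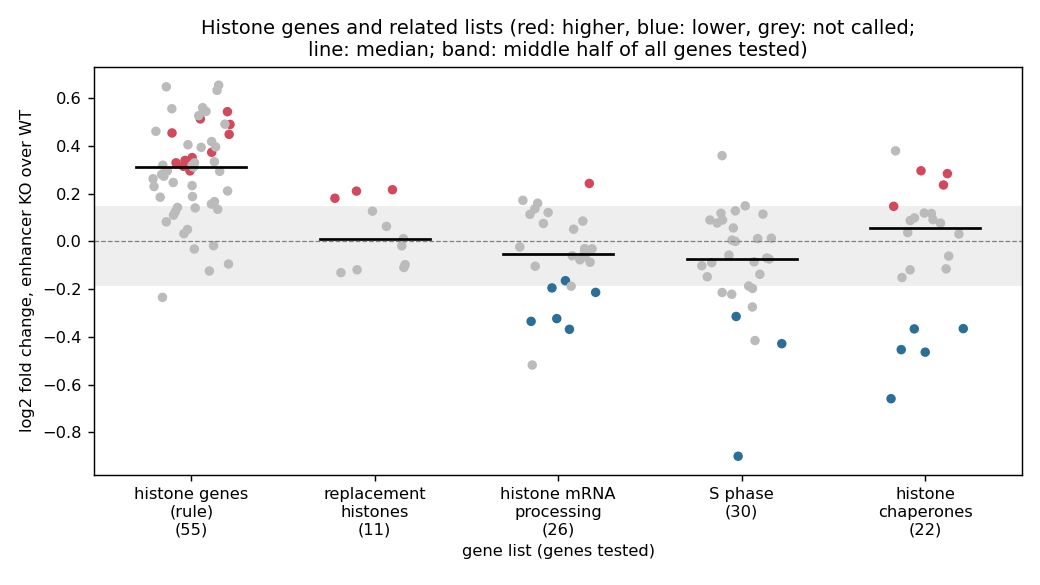
Log2 fold change of enhancer KO over WT for tested histone genes and 4 related gene lists, coloured by call, with list medians as lines and the 0.25 to 0.75 quantile range of all tested genes as a band. The histone genes have a median of 0.31 and the other 4 lists medians between -0.07 and 0.06. The band shows single genes and is no yardstick for a median.

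Of the listed genes of DNA replication and the cell cycle, called S-phase genes here, none passed as higher. Of 30 tested, edgeR called 0 higher and 3 lower (10%), against 13.4% and 17.9% of all genes tested, and the median log2 fold change was -0.07. At an unadjusted p under 0.05, 1 was higher and 3 lower. The higher gene was Rrm2 (0.36, edgeR adjusted p = 0.0999), above WT in every enhancer KO library and named after its values were seen. DESeq2 called 0 in either direction, and limma-voom called 0 higher and 3 lower. Pcna, the sliding clamp and also named after its values were seen, was at 32.4, 34.5 and 36.2 CPM in WT and 34.0, 36.8 and 36.5 CPM in enhancer KO (0.06, edgeR adjusted p = 0.513). Cdc6, which licenses origins, was at 1.14, 0.928 and 1.10 CPM in WT and 0.558, 0.598 and 0.551 CPM in enhancer KO (-0.90, edgeR adjusted p = 0.0150). Pola1 (-0.31) and Prim1 (-0.43), of the polymerase that starts DNA strands, were the other 2 called lower. All 3 lost the call without enhancer KO replicate 1 and without WT replicate 3 (0.0507 to 0.0983), and Pola1 and Prim1 also in the fits lacking replicate 2 of either group (0.0830 to 0.109). The 6 granule precursor markers summed to 232 to 241 CPM in WT and 240 to 250 CPM in enhancer KO, with 0 of 5 tested called. Most of this sum was Ptch1, at 154 to 160 CPM in WT and 163 to 169 CPM in enhancer KO. Atoh1 had only 5, 3 and 7 reads in WT and 3, 2 and 4 in enhancer KO, too few to test. Gli1, Mycn, Ccnd1 and Barhl1 overlapped between the groups. The 2 oligodendrocyte precursor markers, of the other dividing cells of the tissue, summed to 110 to 123 and 101 to 116 CPM. Cspg4 was called lower (-0.38), and Pdgfra was not called (0.01, edgeR adjusted p = 0.904). The part of these cell types in the histone levels was not tested.

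Histone chaperones, which carry histones to and from DNA, went both ways. Of 22 tested, 4 were called higher and 5 lower, with a median log2 fold change of 0.06. These are 18.2% and 22.7%, near the 13.4% and 17.9% of all genes tested. Ubn2 (-0.45) and Cabin1 (-0.37), partners of the H3.3 chaperone HIRA, and Atrx (-0.37), the partner of DAXX, were called lower. Hira (0.09), Daxx (0.08) and Ubn1 (-0.12), looked up after these calls were seen, were not called. Set, a histone-binding inhibitor of acetylation, was at 135, 139 and 136 CPM in WT and 159, 171 and 173 CPM in enhancer KO and was called higher (0.30). Nasp (-0.46), a chaperone that holds the soluble stock of H3 and H4, was called lower and was named after its value was seen. Nucks1 (0.24) and Nap1l4 (0.15), also named after their values were seen, were called higher.

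Other RNAs without a poly(A) tail ranged from abundant to undetected. Of 31 such non-polyadenylated RNA genes listed, among them the ribosomal RNA gene Rn45s, 14 were in the counts, 7 were tested and 0 were called by edgeR. At an unadjusted p under 0.05, 0 passed, and limma-voom called 0 and DESeq2 1, Rn45s. Rpph1, the RNA of ribonuclease P, was at 6831, 9326 and 8592 CPM in WT and 9880, 9950 and 10368 CPM in enhancer KO (log2 fold change 0.29, edgeR adjusted p = 0.141). The groups did not overlap, and the call turned without WT replicate 1 (0.17, edgeR adjusted p = 0.00693) or WT replicate 2 (0.39, edgeR adjusted p = 0.0203). Rn45s fell past the threshold without WT replicate 2 (-0.90, edgeR adjusted p = 2.10e-06), the library with the high ribosomal share, against -2.10 with it (edgeR adjusted p = 0.137). Rmrp, the RNA of the related ribonuclease MRP, was at 792 to 1034 CPM in WT and 810 to 1089 CPM in enhancer KO, with wide overlap. The other 4 tested, Rnu12, Terc, Vaultrc5 and Rnu11, had means of 0.858 to 10.8 CPM over the 6 libraries, and the 7 not tested had 0.249 CPM or less.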

How the data were processed

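Trimmomatic, STAR and the mm10 build are named in the submitters' processing notes. Neither tool's version nor the counting annotation is given in the sources used here. Each deposited file holds raw read counts per gene as written by STAR, not normalized, and the column of the strand that held nearly all stranded reads was used. Library sizes and tests leave out the 4 rows that name no gene. They hold the unmapped, multimapping, ambiguous and out-of-exon reads, the last 31.1% to 34.1% of WT and 16.8% to 18.2% of enhancer KO reads. Only reads aligned to 1 place are in genes, which lowers counts of near-identical histone copies.

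Counts of all 15846 genes passing filterByExpr were fitted with the quasi-likelihood test of edgeR 4.0.16 in R 4.3.3, with TMM scaling, two-sided, Benjamini-Hochberg adjusted over all of them, at a threshold of 0.05. Levels are CPM on TMM-scaled library sizes. Every pair of libraries differed by more than sampling noise. The text names each histone gene past the threshold, the 20 with the highest mean level, testis genes with reads, up to 4 called genes of each related list by p or its 2 most abundant where none was called, and Atoh7. The histone genes, the lists and this rule were chosen with earlier results of these data known. Alternatives were other scalings and filters, the unstranded column, ribosomal RNA removed, a replicate block, DESeq2 1.42.0, limma-voom 3.58.1, and leaving out each library. Stem-loops, word sharing and overlaps come from GENCODE M21, promoters and transcript lengths from RefSeq.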

Additional observations from a re-analysis of the deposited data

How the results depend on the processing

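The count of histone genes called higher, 11, was 9 to 16 under the 9 other settings and 8 to 14 with 1 library left out, and 49 to 53 fold changes were above 0. Hist1h4h, Hist2h4, Hist3h2a, Hist4h4, Hist1h4a and Hist1h4b passed in every one of these fits. The count called lower was 1 with DESeq2 (Hist1h1e) and 0 to 1 in leave-one-out fits. The summed ratio was 1.17 to 1.22 under the other scalings and the unstranded column, and 1.10 to 1.20 in leave-one-out fits. Scaling by library size alone left 1689 genes lower over all genes, 3 histone message processing genes, 1 S-phase gene and 1 of the other non-polyadenylated RNA genes called. S-phase calls were 5 with the unstranded column, 0 with DESeq2 and 0 to 3 in leave-one-out fits. Calls of the other non-polyadenylated RNA genes were 1 with DESeq2 and 0 to 2 in leave-one-out fits, and those of replacement histones 0 to 3. Among the histone genes named by the rule, those whose fold change turned sign were Hist1h3f (0.030 with library size alone, -0.11 to 0.024 in leave-one-out fits), Hist3h2ba (-0.077 to 0.11) and Hist2h3b (-0.045 to 0.11, both in leave-one-out fits). Causes were not tested.

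Same-numbered libraries share only a number: the correlations of their deviations were 0.06, -0.06 and -0.16, and 1 of 3 WT libraries correlated best with its own number. A replicate block gave 12 histone genes higher, 10 of them shared with the fit without it, 1 replacement histone and 1 of the other non-polyadenylated RNA genes. Histone genes with few reads have standard errors above 0.2 on the log2 scale. Of these, Hist1h2bk, not called in the main comparison, was called higher with RLE scaling, library size alone, ribosomal RNA removed, no filter or the unstranded column, and without enhancer KO replicate 3. Hist1h2ae and Hist1h2bl were with the unstranded column, and Hist1h2ab and Hist1h2bh without WT replicate 3.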
